A study of Mus musculus with 6 samples.

Results

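Merkel cells are touch-sensitive neuroendocrine cells of the epidermis. Their lineage transcription factors were examined here in 6 mouse Smart-seq2 libraries, a low-input RNA sequencing method. The 9 genes were taken by known role in Merkel cell specification or in neuroendocrine and sensory fate, by an exact match of the gene symbol, and all 9 were found among the 54532 genes of the table. They are Atoh1, Neurod1, Hes6, Sox2, Pou4f3, Isl1, Lhx3, Insm1 and Gfi1. All libraries came from male and female C57BL/6 mice of 4 weeks, and each held 500 sorted events of dissociated dorsal epidermis that excluded the dead-cell dye DAPI. The 3 NCAM-enriched libraries held cells selected with beads and then sorted for the surface protein NCAM (CD56). Both steps used antibodies against PSA-NCAM, its polysialylated form. The 3 bulk skin libraries (Total_skin_DAPI_neg) held epidermal cells sorted without NCAM, a population that can include Merkel cells. No source used here ties a library to an animal, so the p-values measure only the spread between these libraries, which may be technical. The comparison asks which factors differ in level between NCAM-selected and unselected epidermal cells, and whether their mix differs within libraries.

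Atoh1 is a basic helix-loop-helix (bHLH) factor without which Merkel cells do not form, and Sox2, an HMG-box factor, acts with it in the same lineage. Isl1 and Lhx3 are LIM-homeodomain factors of neuronal and pituitary cells, Isl1 being known in Merkel cells too, and Pou4f3 is a POU-homeodomain factor of sensory hair cells and Merkel cells. Neurod1 is a bHLH factor of neuronal differentiation, and Hes6 is a Hes family member that, unlike Hes1, favours neuronal differentiation. Insm1 and Gfi1 are zinc-finger repressors whose SNAG domain binds the LSD1 (Kdm1a) corepressor complex. The bHLH activators bind the E-box CANNTG as dimers with E proteins, and Id proteins sequester those partners.

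The genes lie on separate chromosomes except for Neurod1, Lhx3 and Insm1 (GRCm38, GENCODE). Atoh1 is a single-exon gene on chromosome 6 from 64729125 to 64731245, plus strand, and Sox2 lies on chromosome 3 from 34650405 to 34652461, plus strand, inside the non-coding gene Sox2ot with which it shares no exon. Isl1 lies on chromosome 13 from 116298281 to 116309689, minus strand. Chromosome 2 holds Lhx3 from 26200212 to 26208289 and Neurod1 from 79452521 to 79456751, both on the minus strand, and Insm1 from 146221921 to 146225020 on the plus strand. Hes6 lies on chromosome 1 from 91411483 to 91414038 and Gfi1 on chromosome 5 from 107716657 to 107726036, both on the minus strand. Reads in exons shared with another gene cannot be assigned with certainty. Smart-seq2 does not mark strand, which would separate only genes on opposite strands. The shared part is 13.0% of the exonic bases of Neurod1, with Cerkl on the same strand and Gm26755 on the opposite strand. For Lhx3 it is 6.17% (Gm27196) and for Gfi1 3.17% (A430072P03Rik), both with a gene on the opposite strand.

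The start regions of 4 factors are shown because Atoh1, Sox2 and Lhx3 were called higher in NCAM-enriched cells and the levels of Isl1 ran closest to those of Atoh1 across all 6 libraries. Pou4f3 was also called higher, but it and Insm1 had no entry in the RefSeq promoter table used (GRCm38.p6). The regions shown come from that table, which gives 250 bases before and 50 after each start. Each is written 5′ to 3′ on the gene's strand, and capitals mark E-boxes, searched as CANNTG, which reads alike on both strands. The regions are chr6:64728875-64729174 (plus) for Atoh1, chr3:34649745-34650044 (plus) for Sox2, chr13:116309639-116309938 (minus) for Isl1, and, for the upstream and downstream starts of Lhx3, chr2:26208200-26208499 and chr2:26206526-26206825 (minus).
Atoh1: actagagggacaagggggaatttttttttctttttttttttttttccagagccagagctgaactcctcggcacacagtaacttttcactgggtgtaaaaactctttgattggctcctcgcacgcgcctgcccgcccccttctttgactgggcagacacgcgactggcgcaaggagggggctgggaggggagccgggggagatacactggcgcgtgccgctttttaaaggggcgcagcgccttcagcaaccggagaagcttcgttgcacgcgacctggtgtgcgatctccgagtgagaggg
Sox2: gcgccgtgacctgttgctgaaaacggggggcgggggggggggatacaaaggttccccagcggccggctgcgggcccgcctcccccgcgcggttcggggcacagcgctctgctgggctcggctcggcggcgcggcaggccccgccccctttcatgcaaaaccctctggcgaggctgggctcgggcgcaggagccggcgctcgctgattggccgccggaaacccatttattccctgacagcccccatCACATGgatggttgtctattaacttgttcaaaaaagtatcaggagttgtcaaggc
Isl1: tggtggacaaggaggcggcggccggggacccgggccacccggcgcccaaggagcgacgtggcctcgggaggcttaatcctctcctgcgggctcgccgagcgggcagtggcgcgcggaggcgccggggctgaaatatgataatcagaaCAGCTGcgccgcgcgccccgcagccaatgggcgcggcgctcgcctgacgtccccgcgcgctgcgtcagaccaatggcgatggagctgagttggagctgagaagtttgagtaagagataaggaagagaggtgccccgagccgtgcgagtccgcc
Lhx3 upstream start: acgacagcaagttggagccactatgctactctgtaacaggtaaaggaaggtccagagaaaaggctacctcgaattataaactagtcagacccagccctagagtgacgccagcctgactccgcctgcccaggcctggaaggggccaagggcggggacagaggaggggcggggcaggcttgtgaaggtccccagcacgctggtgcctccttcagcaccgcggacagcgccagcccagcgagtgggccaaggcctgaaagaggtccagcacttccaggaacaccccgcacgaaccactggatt
Lhx3 downstream start: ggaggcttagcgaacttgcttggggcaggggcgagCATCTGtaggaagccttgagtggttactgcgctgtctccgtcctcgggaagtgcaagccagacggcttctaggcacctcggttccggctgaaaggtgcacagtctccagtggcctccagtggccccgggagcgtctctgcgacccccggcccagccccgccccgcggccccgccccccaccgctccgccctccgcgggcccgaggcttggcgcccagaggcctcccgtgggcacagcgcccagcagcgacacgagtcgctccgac

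Within these windows Atoh1 and the upstream Lhx3 start held no CANNTG. Counted from the start base as position 0, the Sox2 window held CACATG at -5, the Isl1 window CAGCTG at -103 and the downstream Lhx3 window CATCTG at -215. The Sox2 position is counted from the RefSeq start, and its window ends at 34650044, before the GENCODE start of the gene at 34650405. Over the 10 windows of the 7 factors with an entry, 8 held CANNTG, against 72.3% of all 32851 windows of the table. The narrower motif CAGCTG stood in 3 of the 10 windows, 1 of Isl1 and 2 of Hes6, against 16.3% of all windows. CAGATG or its complement CATCTG stood in 1 of the 10 windows against 17.2% of all. The Sox motif ATTGTT and the POU motif ATGCAAAT, each searched on both strands, stood in none of them, against 10.7% and 1.74% of all windows. These are matches of letters in short windows and not measured binding sites.

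The libraries held 1343190 to 4481830 counts, so that 1 count was worth 0.216 to 0.773 normalised CPM (counts relative to the library total over the tested genes, corrected by TMM factors), and 3 counts, the upper limit that a count of 0 allows, were 0.649 to 2.32 CPM. Reads are PCR copies, so such limits cover counting error only. In bulk RNA, fewer cells of a type and less RNA per cell cannot be told apart. Of the 12 Merkel cell markers, 9 had enough counts for testing. Vip and Sst were at 0 in every library. Syp had 6, 1 and 0 counts in NCAM-enriched and 8, 8 and 0 in bulk skin libraries 1, 2 and 3. By edgeR 2 of the 9 tested were called higher in NCAM-enriched cells, against 1.04% of all genes. These were Krt20, a keratin of Merkel cells, and Chga, a protein of hormone granules. The fold change of all 9 tested was above 0 (median log2 3.40). DESeq2 called 7 higher (5.02% of all genes) and limma-voom 1 (2.67%). The touch channel gene Piezo2 was not called by edgeR (log2 fold change 3.40 ± 0.80 SE, edgeR adjusted p = 0.0608). The summed level of the list was 1637, 2007 and 315 CPM in NCAM-enriched libraries 1, 2 and 3 and 148 to 402 CPM in bulk skin, so that NCAM-enriched library 3 lay within the bulk skin range. This overlap came from the peptide gene Cck, at 20.4 CPM in that library and 252, 96.8 and 34.3 CPM in bulk skin. Without Cck, an alternative chosen after seeing the data, the sums were 1232, 1249 and 294 CPM against 113 to 150 CPM, and library 3 lay above all bulk skin libraries. Krt20 stood at 70.1 CPM in library 3 and at 12.1 to 15.3 CPM in bulk skin. The NCAM-enriched libraries also held 12988 to 29860 CPM of suprabasal keratinocyte markers against 1055 to 1419 in bulk skin (6 of 8 called higher). T cell markers summed to 1.06 to 13.1 CPM against 2749 to 2972 (6 of 6 called lower). Langerhans cell markers summed to 156 to 713 CPM against 9692 to 16677 (5 of 6 called lower). Over all genes edgeR called 1.04% higher and 1.55% lower. The part of these cell types in the results below was not tested.

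**Figure D1:**
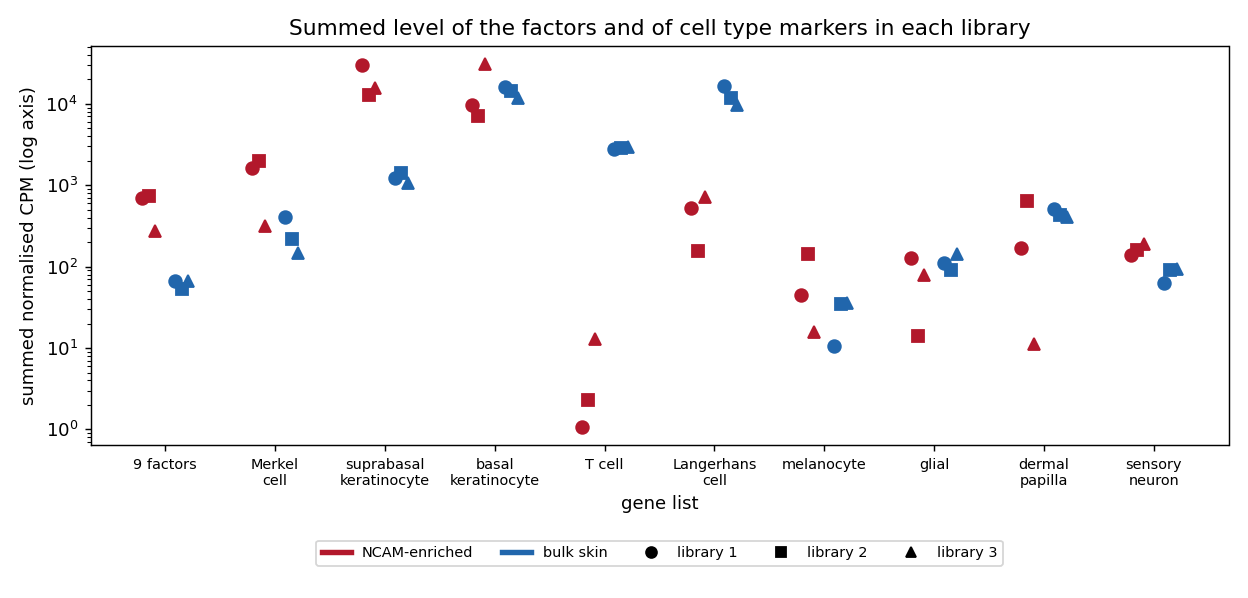
Summed normalised CPM (log axis) of the 9 factors and of 9 lists of cell type markers, 1 point per library, red for NCAM-enriched and blue for bulk skin, with the symbol giving the library number. The factors sum to 272 to 732 CPM in NCAM-enriched and 53.8 to 67.2 CPM in bulk skin libraries, and Merkel cell markers of NCAM-enriched library 3 (315 CPM) lie among those of bulk skin only through Cck, without which they sum to 294 CPM against 113 to 150 CPM.

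Other cell types known to express some of these factors were measured the same way. Melanocyte markers summed to 15.6 to 142 CPM in NCAM-enriched and 10.6 to 35.4 CPM in bulk skin libraries, and glial markers to 13.9 to 128 against 89.9 to 141 CPM. Markers of the dermal papilla, where Sox2 is also known to be expressed, summed to 11.1 to 638 against 412 to 511 CPM. The highest melanocyte and dermal papilla sums, 142 and 638 CPM, were both those of NCAM-enriched library 2. Sensory neuron markers summed to 141 to 188 against 63.0 to 93.2 CPM, without overlap. Most of this was Avil, at 132 ± 32.3 against 77.1 ± 17.8 CPM (SD, n = 3 each). Tested were 1 of 6 melanocyte, 4 of 6 glial, 5 of 6 dermal papilla and 2 of 8 sensory neuron genes. None of these was called in either direction by edgeR, and the other genes, with too few counts, have no test result. Only 1 gene, the glial S100b, had an unadjusted edgeR p under 0.05, and DESeq2 and limma-voom called it lower. Basal keratinocyte markers summed to 7129 to 30792 against 11854 to 16282 CPM, the highest value being that of NCAM-enriched library 3, with none of 6 called.

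Of the lineage factors, Atoh1, Sox2, Pou4f3 and Lhx3 were higher in NCAM-enriched cells by edgeR's quasi-likelihood test, at 9.33 to 19.8 times the bulk skin level, and Isl1 and Insm1 had every NCAM-enriched library above every bulk skin library without passing that test. Hes6, Gfi1 and Neurod1 overlapped between the groups. Enough counts for testing were present for 8 of the 9 factors, and 4 of these were called higher, where 1.04% of the 13157 genes tested were called in that direction, and none was called lower, where 1.55% of the genes were. Groups without overlap in the direction of NCAM-enriched cells were found for 6 of the 9 factors and for 11.1% of all genes tested. The median log2 fold change of the 8 factors was 3.42, against -0.07 for all genes tested. The factors were chosen with earlier results of these data known, and the study named Atoh1, Sox2, Insm1 and Neurod1 from these samples. These shares are therefore not independent support.

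The summed level of the 9 factors was 706, 732 and 272 CPM in NCAM-enriched libraries 1, 2 and 3 and 67.1, 53.8 and 67.2 CPM in bulk skin libraries 1, 2 and 3. NCAM-enriched library 3 was thus the lowest of its group in these genes as in the Merkel cell markers, and still above all bulk skin libraries.

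Atoh1, the specifying bHLH factor, stood at 99.4, 44.8 and 52.5 CPM in NCAM-enriched libraries 1, 2 and 3 and at 7.14, 2.16 and 6.03 CPM in bulk skin libraries 1, 2 and 3. The groups did not overlap, the lowest NCAM-enriched library being 6.28 times the highest bulk skin library. The means were 65.6 ± 29.5 and 5.11 ± 2.61 CPM (SD, n = 3 each), and the log2 fold change was 3.68 ± 0.74 (SE; edgeR adjusted p = 0.0403).

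Neurod1 had 54 counts (28.7 CPM) in NCAM-enriched library 1 and 0 in libraries 2 and 3, which allows up to 2.32 and 0.851 CPM there. In bulk skin it had 0, 5 and 10 counts in libraries 1, 2 and 3, with up to 0.931 CPM allowed in library 1. All its NCAM-enriched reads thus came from 1 library, and it did not pass the filter on low counts, so no fold change was fitted. Cerkl, which shares exons with it, had 19, 0 and 1 counts in NCAM-enriched and 5, 0 and 12 in bulk skin libraries 1, 2 and 3.

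Hes6, the third bHLH gene, stood at 11.2, 86.5 and 28.7 CPM in NCAM-enriched and at 8.38, 12.3 and 26.6 CPM in bulk skin libraries 1, 2 and 3. NCAM-enriched library 1 lay below bulk skin libraries 2 and 3, and library 2 alone stood well above the rest. The log2 fold change was 1.41 ± 0.89 (SE) and was not called (edgeR adjusted p = 0.453).

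Sox2 reached 183, 145 and 25.0 CPM in NCAM-enriched libraries 1, 2 and 3, against 9.62, 6.49 and 1.65 CPM in bulk skin libraries 1, 2 and 3. The groups did not overlap, but the highest NCAM-enriched library was 7.32 times the lowest, and library 3 was 2.59 times the highest bulk skin library. The means were 118 ± 82.4 and 5.92 ± 4.02 CPM (SD, n = 3 each), with a log2 fold change of 4.30 ± 0.92 (SE; edgeR adjusted p = 0.0485), the largest of the 8 factors tested. Sox2ot, the transcript spanning Sox2, had 6, 65 and 18 counts in NCAM-enriched libraries 1, 2 and 3 and 16, 3 and 20 in bulk skin, and did not follow the order of Sox2 across libraries.

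Pou4f3 (GRCm38 chromosome 18, 42394539 to 42397249, plus strand) stood at 159, 313 and 75.2 CPM in NCAM-enriched libraries 1, 2 and 3. In bulk skin it stood at 17.4, 20.8 and 20.3 CPM, the narrowest spread of any of the factors in that group (coefficient of variation 9.36%). No library overlapped the other group, and the means of 183 ± 121 and 19.5 ± 1.82 CPM (SD, n = 3 each) gave a log2 fold change of 3.22 ± 0.57 (SE; edgeR adjusted p = 0.0266), the smallest p of the set.

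The LIM-homeodomain gene Lhx3 stood at 99.9, 28.6 and 24.4 CPM in NCAM-enriched and 3.10, 3.46 and 1.65 CPM in bulk skin libraries 1, 2 and 3. It had the widest gap between groups, the lowest NCAM-enriched library being 7.06 times the highest bulk skin library, although library 1 held most of its NCAM-enriched reads (188 of 311 counts). The log2 fold change of 4.20 ± 0.90 (SE) lay just within the threshold (edgeR adjusted p = 0.0496), and the call was lost in 10 of the 16 alternatives.

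Isl1, of the same family, stood at 68.5, 40.9 and 25.3 CPM in NCAM-enriched and 6.52, 3.67 and 5.48 CPM in bulk skin libraries 1, 2 and 3. The groups did not overlap, with means of 44.9 ± 21.9 and 5.23 ± 1.44 CPM (SD, n = 3 each). The log2 fold change of 3.10 ± 0.77 (SE) missed the threshold in edgeR (adjusted p = 0.0691), and was called by DESeq2.

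Insm1 stood at 40.4, 72.6 and 30.9 CPM in NCAM-enriched and 9.31, 1.51 and 0.823 CPM in bulk skin libraries 1, 2 and 3. Bulk skin library 1 carried 30 of its 40 bulk skin counts, and without that library the log2 fold change was 5.23 instead of 3.62 ± 1.06 (SE; edgeR adjusted p = 0.0986). Gfi1, the other SNAG-domain repressor, had 29, 0 and 36 counts in NCAM-enriched libraries 1, 2 and 3 and 18, 11 and 7 in bulk skin. Its 0 in NCAM-enriched library 2 allows up to 2.32 CPM, which lies within the bulk skin range of 1.92 to 5.59 CPM, and its log2 fold change of 1.38 ± 1.44 (SE) was not called (edgeR adjusted p = 0.674).

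**Figure D2:**
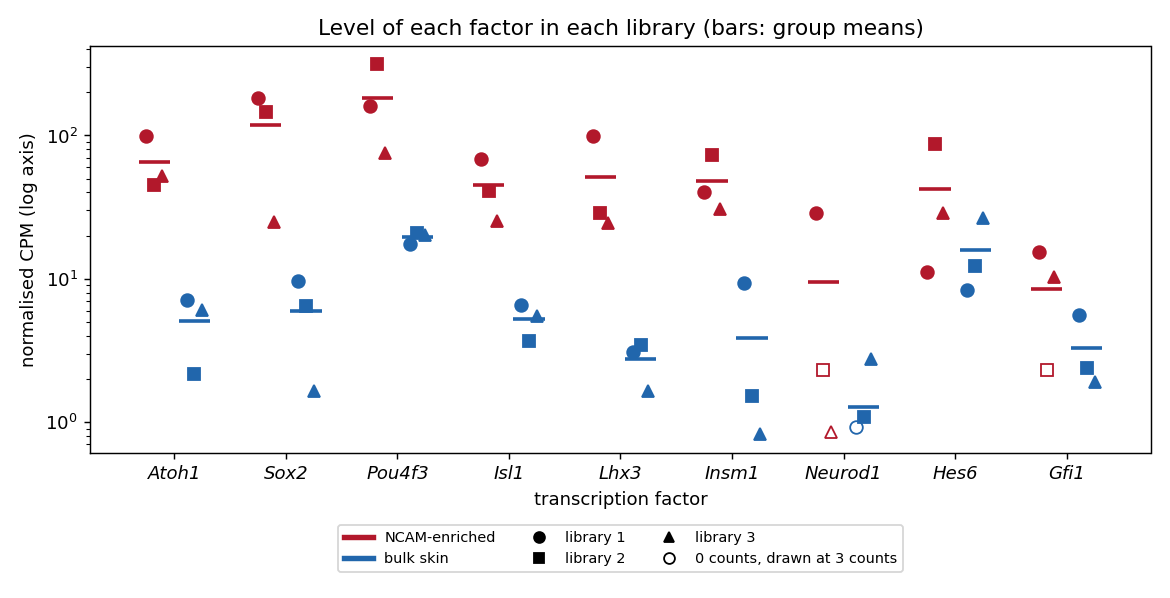
Normalised CPM (log axis) of each factor in each library, red for NCAM-enriched and blue for bulk skin, with bars at the group means and hollow symbols for 0 counts drawn at the upper limit of 3 counts. Atoh1, Sox2, Pou4f3, Isl1, Lhx3 and Insm1 have every NCAM-enriched library above every bulk skin library, whereas Neurod1, Hes6 and Gfi1 overlap.

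The calls differed between tools and with single libraries left out, as did the calls over all genes. DESeq2 called 6 of the 8 higher, adding Isl1 and Insm1 (5.02% of all genes), and limma-voom called 3, Atoh1, Pou4f3 and Insm1 (2.67% of all genes). In edgeR no factor was called without bulk skin library 1, 2 or 3, where the share of all genes called higher was 0%, 0% and 0.00678%. Each time 6 factors had an unadjusted p under 0.05, as had 14.0%, 15.0% and 14.8% of all genes in either direction. Only Pou4f3 was called without NCAM-enriched library 1 (0.422% of all genes called higher). Without library 2 or library 3 of that group 5 factors were called, Isl1 being added, while the share of all genes called higher went to 3.09% and 7.35%. An exact two-sided permutation test of 3 against 3 libraries cannot go below p = 0.1, the value reached by each of the 6 factors without overlap. In every one of the 16 alternative fits the fold change of each of the 8 factors stayed above 0.

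**Figure D3:**
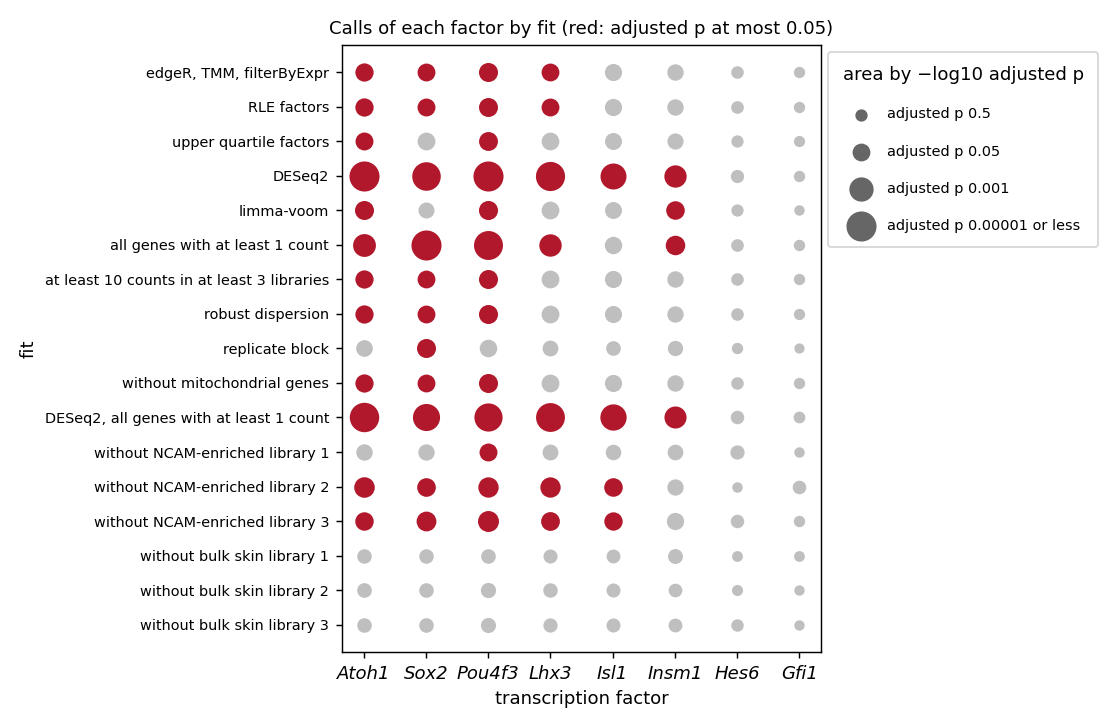
Adjusted p of the 8 tested factors (columns) in the edgeR quasi-likelihood fit and 16 alternatives (rows), with point area rising with −log10 adjusted p and red marking an adjusted p of at most 0.05. Hes6 and Gfi1 are grey in every row, and all factors are grey in the 3 rows that leave out a bulk skin library.

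To compare levels between the genes, CPM was divided by exonic length. In NCAM-enriched cells the mean levels per kilobase were, in order, Pou4f3 at 76.1 ± 50.2, Sox2 at 57.2 ± 40.1, Atoh1 at 30.9 ± 13.9, Hes6 at 23.3 ± 21.8, Lhx3 at 16.7 ± 13.9, Insm1 at 15.5 ± 7.05, Isl1 at 11.3 ± 5.54, Neurod1 at 3.50 ± 6.07 and Gfi1 at 2.68 ± 2.46 CPM per kb (SD, n = 3). The ranges of every neighbouring pair in this order overlapped. Compared within libraries, Isl1 was above Neurod1 in 3 of 3, and in each other neighbouring pair the first gene was above the next in 1 or 2 of 3. In bulk skin the order began with Hes6 at 8.72 ± 5.30 and Pou4f3 at 8.12 ± 0.760 CPM per kb (SD, n = 3), followed by Sox2, Atoh1, Isl1, Insm1, Gfi1, Lhx3 and Neurod1 at 2.88 down to 0.467. Only Pou4f3 and Sox2 were neighbours without overlap there, and within libraries Pou4f3 was above Sox2, and Atoh1 above Isl1, in 3 of 3. With the length of the longest coding transcript instead, Hes6 passed Atoh1 and Isl1 passed Insm1 in NCAM-enriched cells, and Lhx3 passed Gfi1 in bulk skin.

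Among all tested genes ranked by CPM per kb within each library, Pou4f3 stood at percentile 86.1 to 97.9 in NCAM-enriched and 53.4 to 57.9 in bulk skin libraries. Atoh1 stood at percentile 79.2 to 91.2 and 8.76 to 32.1. These factors were thus among the more abundant transcripts of the NCAM-enriched libraries, and Atoh1 among the rarer ones of bulk skin. Sox2 ranged more widely, from percentile 67.2 in NCAM-enriched library 3 to 95.8 in library 1.

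Within a library the mix of the 9 factors is free of library scaling. Pou4f3 was the most abundant factor per kb in 4 of the 6 libraries, with 28.1% to 41.6% of the summed level in NCAM-enriched libraries 2 and 3 and 26.5% to 37.1% in bulk skin libraries 1 and 2. Sox2 led in NCAM-enriched library 1 with 31.0%, and Hes6 led in bulk skin library 3 with 48.1%. The share of Pou4f3 averaged 31.0% ± 9.57 in NCAM-enriched and 30.4% ± 5.81 in bulk skin libraries (SD, n = 3 each; exact permutation p = 0.8).

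Hes6 took 2.15%, 15.3% and 14.2% of the mix in NCAM-enriched libraries 1, 2 and 3 and 16.9%, 29.2% and 48.1% in bulk skin. It was the only factor whose shares did not overlap between the groups, at 10.5% ± 7.29 against 31.4% ± 15.7 (SD, n = 3 each). The exact permutation p was 0.1, the smallest possible, and 0.54 after Benjamini-Hochberg adjustment over the 9 factors, so this difference was not past the threshold. The share of each factor depends on all others, and the other 8 factors had unadjusted exact permutation p-values of 0.2 to 1.

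**Figure D4:**
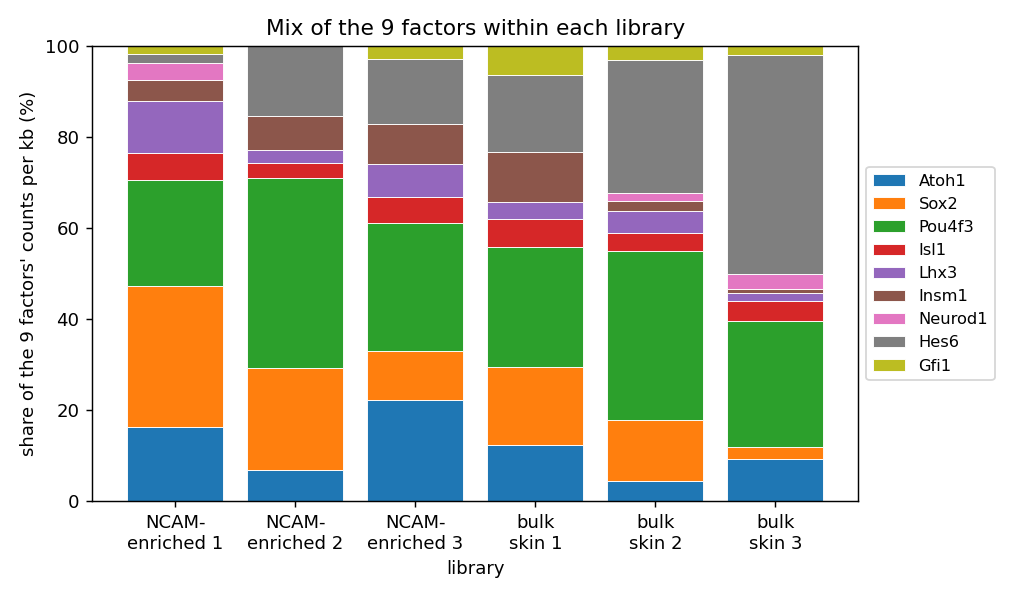
Share of each factor in the summed counts per kb of the 9 factors (percent, stacked to 100), 1 bar per library. Hes6 (grey) widens from 2.15% to 15.3% in NCAM-enriched to 16.9% to 48.1% in bulk skin libraries, and Pou4f3 (green) is the widest band in 4 of 6 bars.

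Ratios to Atoh1 within each library were compared for the 7 other tested factors, on counts per kb with 0.5 added to each count. Sox2 was 1.89, 3.32 and 0.492 times Atoh1 in NCAM-enriched and 1.38, 2.995 and 0.298 times Atoh1 in bulk skin libraries 1, 2 and 3. Pou4f3 was 1.42, 6.13 and 1.27 times Atoh1 in NCAM-enriched and 2.13, 8.13 and 2.93 times in bulk skin. In both groups, then, these ratios spread more among libraries than between the group means, the log2 difference being 0.44 for Sox2 and -0.73 for Pou4f3.

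Hes6 was 0.135, 2.26 and 0.642 times Atoh1 in NCAM-enriched and 1.37, 6.42 and 5.08 times in bulk skin libraries 1, 2 and 3, a log2 difference of -2.62 (exact permutation p = 0.2, adjusted p = 0.467 over the 7 ratios). The libraries overlapped through NCAM-enriched library 2. Isl1 kept the narrowest ratio to Atoh1, from 0.258 to 0.490 in NCAM-enriched and 0.488 to 0.893 in bulk skin libraries. Only the Gfi1 ratio did not overlap (log2 difference -3.36, exact permutation p = 0.1, adjusted p = 0.467), and its lowest value rests on the 0 count of NCAM-enriched library 2.

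Without NCAM-enriched library 2, 4 of the 7 ratios differed without overlap between groups, and without any 1 bulk skin library 2 of them did. Over all 28 pairs of tested factors, 4 did not overlap, namely Atoh1, Insm1 and Lhx3 to Gfi1 and Pou4f3 to Hes6. The smallest adjusted p over the 28 pairs was 0.467 (exact permutation tests, two-sided). Without any difference, 3 against 3 libraries separate with a probability of 0.1, and more often when a library is left out. Some ratios without overlap can thus arise by chance, and these counts are not read as a change of the mix. For Pou4f3 to Hes6 the mean log2 ratio was 1.94 ± 1.28 in NCAM-enriched and 0.06 ± 0.75 in bulk skin libraries (SD, n = 3 each).

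Across the 6 libraries, the levels of the factors on a log2 CPM scale (prior count 2) ran most alike for Atoh1 and Isl1 (Pearson r = 0.979) and least for Hes6 and Gfi1 (r = -0.707). These values describe 6 points that fall into 2 groups and share library depth, and carry no test. The 8 genes outside the set that most followed Atoh1, of 9907 ranked, were Rin2 (r = 0.999), Rab38 (0.998), Cdca7l (0.994), Trmt2a (0.993), Cyb5r4 (0.989), Bpifc (0.988), Btbd10 (0.987) and Fut2 (0.987). A high r did not go with a like size of difference, since r ignores scale. Rab38 averaged 98.8 ± 3.70 CPM in NCAM-enriched and 79.3 ± 4.31 in bulk skin libraries (SD, n = 3 each), and of the 8 only Fut2, a fucosyltransferase, was called (86.3 ± 18.2 against 3.52 ± 3.21 CPM, log2 fold change 4.63 ± 0.91 SE, edgeR adjusted p = 0.0374).

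Genes that bind, oppose or resemble these factors gave 2 calls by edgeR among 29 tested, where 2.59% of all genes were called in either direction, and 6 by DESeq2 (12.1% of all genes) and 4 by limma-voom (9.12%). Of the 17 dimer partners and cofactors (E proteins, LIM-domain binding proteins and LMO proteins, and the LSD1 complex), 16 were tested and none was called by edgeR, 10 having a fold change above 0 (median log2 0.33). At an unadjusted p under 0.05, 2 were higher (Rcor2 and Hmg20b) and 1 was lower (Lmo2), a share near the 18.9% of all genes at that level. DESeq2 called all 3 after adjustment, and limma-voom called Hmg20b and Lmo2. The E proteins Tcf3, Tcf4 and Tcf12, with which bHLH activators pair, had log2 fold changes of 0.43 ± 0.59, 0.76 ± 0.56 and 0.22 ± 0.50 (SE). Ldb1, the adaptor that binds LIM-homeodomain factors, stood at 103 ± 72.4 against 42.8 ± 10.1 CPM (SD, n = 3 each). Kdm1a itself had a log2 fold change of 0.65 ± 0.43 (SE).

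Rcor2, a CoREST subunit of the LSD1 complex, had the smallest p of the list. It had 77, 56 and 81 counts in NCAM-enriched and 3, 22 and 13 in bulk skin libraries 1, 2 and 3, without overlap in CPM. The means were 35.7 ± 11.1 and 3.08 ± 1.96 CPM (SD, n = 3 each), and the log2 fold change of 3.50 ± 0.94 (SE) missed the threshold (edgeR adjusted p = 0.0795).

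Of the 10 inhibitors (Id proteins, Hes and Hey repressors, and Rest), 8 were tested. Id2, which sequesters E proteins, was the only gene of the list that edgeR called, and it was lower in NCAM-enriched cells. It had 356, 171 and 442 counts in NCAM-enriched and 2590, 2622 and 4063 in bulk skin libraries 1, 2 and 3, averaging 149 ± 35.0 against 828 ± 274 CPM (SD, n = 3 each; log2 fold change -2.48 ± 0.41 SE, edgeR adjusted p = 0.0225). T cell and Langerhans cell markers fell with it, and their part in this difference was not tested. Id1 and Id3 had log2 fold changes of 0.58 ± 0.37 and -0.64 ± 0.43 (SE), and the median of the list was -0.03. Hes1, a repressor of bHLH activator genes, averaged 261 ± 70.3 against 119 ± 4.54 CPM (SD, n = 3 each) and was not called by edgeR (log2 fold change 1.14 ± 0.35 SE, adjusted p = 0.113), but was called higher by DESeq2 (adjusted p = 0.0384). The call of Id2 was lost without any 1 bulk skin library.

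Of 30 family relatives only 5 were tested, 9 being at 0 in every library. Sox21, a SoxB2 relative of Sox2, was the only call by edgeR on all 6 libraries. It had 290, 212 and 966 counts in NCAM-enriched and 176, 155 and 120 in bulk skin libraries 1, 2 and 3, or 197 ± 66.7 against 40.4 ± 12.4 CPM (SD, n = 3 each; log2 fold change 2.29 ± 0.43 SE, edgeR adjusted p = 0.0329). Sox21 was highest in NCAM-enriched library 3, where Sox2 was lowest, and its call too was lost without any 1 bulk skin library. The median log2 fold change of the 5 was 1.96.

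**Figure D5:**
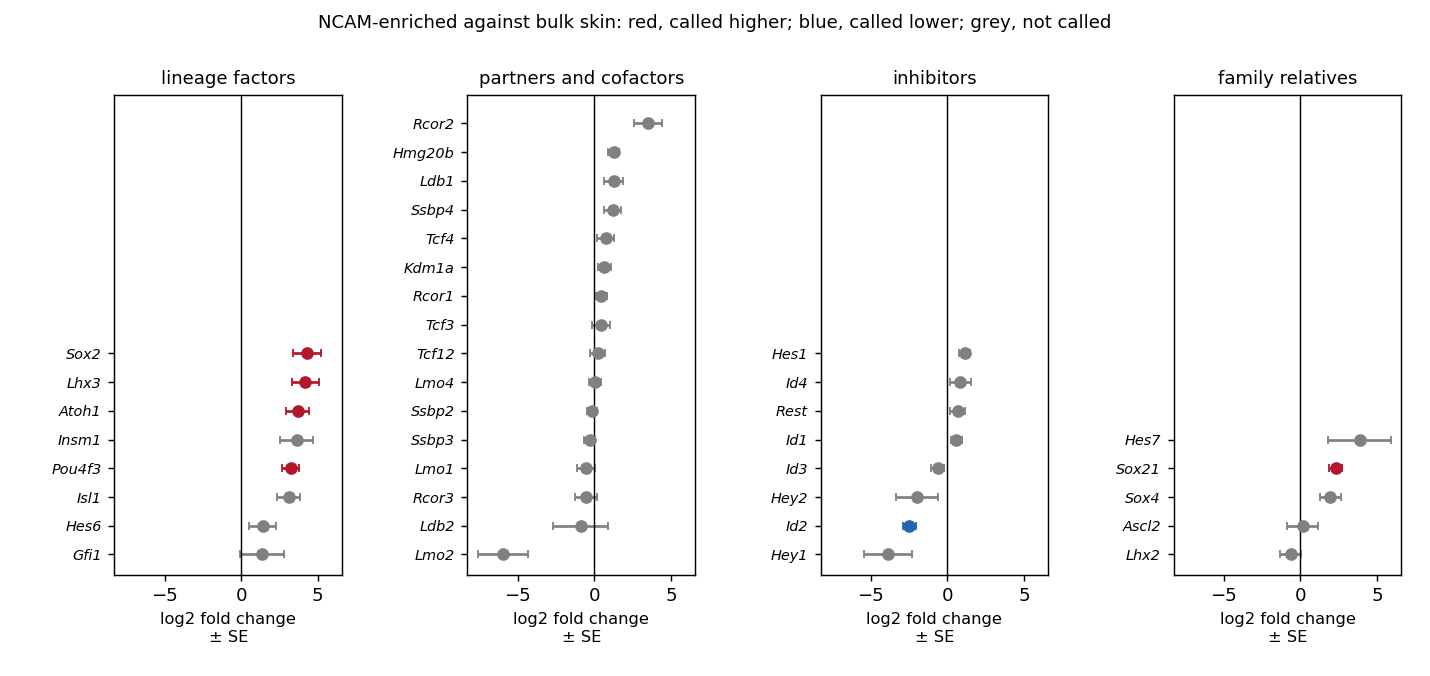
Log2 fold change ± SE, NCAM-enriched against bulk skin, of the 8 tested lineage factors, 16 partners and cofactors, 8 inhibitors and 5 family relatives, red where edgeR called a gene higher and blue where it called it lower. All 8 factors lie above 0, and outside them the only coloured genes are Sox21 and Id2.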

How the data were processed

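Smart-seq2 counts of 3 NCAM-enriched and 3 bulk skin libraries were used. According to the methods, the authors clipped adapters and polyA, removed abundant sequences, used STAR for alignment to GRCm38, and obtained gene counts from featureCounts. The deposited values are raw counts, without normalization. For annotation release and strand setting, no value is given in the sources used here. Here genes were filtered with filterByExpr (minimum count 10) and fitted with edgeR 4.0.16 (quasi-likelihood, TMM, R 4.3.3), with Benjamini-Hochberg adjustment over all tested genes, with an adjusted p of 0.05 as the upper limit for a call. DESeq2 1.42.0, limma-voom (limma 3.58.1), other filters and scalings, and leaving out each library were alternatives. Ratios were compared with exact permutation tests (scipy 1.17.1). Positions and exonic lengths came from GENCODE M21, where 54495 of 54532 gene IDs were found. The factors and lists were chosen with earlier results of these data known, and the study itself named Atoh1, Sox2, Insm1 and Neurod1 from these samples. All factors are given, of the other lists the genes called by edgeR or else that with the smallest p, of the markers the sums and calls with Krt20 and Piezo2, and the 8 genes most like Atoh1. E proteins, Ldb1, Kdm1a, Hmg20b, Lmo2, Hes1, Cck, Id1, Id3, Chga, Syp, S100b, Avil and the relatives in the closing section were chosen after their values were seen.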

Additional observations from a re-analysis of the deposited data

How the results depend on the processing

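The fold change of each of the 8 tested factors stayed above 0 in all 16 alternatives. Against edgeR's calls, 95 of these 128 values kept their side of the threshold, 25 lost a call and 8 gained it. The 4 factors called became 2 with upper quartile scaling (Atoh1 and Pou4f3) and 0 to 5 when a library was left out. Without a bulk skin library edgeR called 0.0858% to 0.141% of all genes, and the cause was not tested. The 2 calls in the cofactor, inhibitor and family lists became 6 with DESeq2, 4 with limma-voom and, with DESeq2 and every gene that had a count (chosen after seeing the data), 7, and 0 to 5 when a library was left out. DESeq2 called 12.1% and limma-voom 9.12% of all genes, against 2.59% for edgeR. The single non-overlapping ratio to Atoh1 became 1 to 4 when a library was left out. With replicate numbers as a block, 1 factor (Sox2) and 0 list genes were called, and 5 of 7 ratios differed in 1 direction in all 3 pairs. Deviations of same-numbered libraries correlated at 0.0226, 0.000250 and -0.00436, and not every library correlated best with its own number. Over all genes, these correlations gave no sign of pairing. Ratios to Atoh1 of Sox2, Isl1 and Hes6 kept the same order of library numbers in both groups. Those of Pou4f3, Insm1, Lhx3 and Gfi1 did not. Noise between libraries could hide pairing, so whether same-numbered libraries share more than a number stays undecided. Over all genes the median log2 fold change was -0.37 in limma-voom and -0.36 with the block. Adjusted p-values spanned 9.93e-06 to 0.224 for Atoh1, 1.91e-06 to 0.224 for Sox2, 9.23e-06 to 0.212 for Pou4f3, 2.22e-05 to 0.270 for Lhx3, 0.000232 to 0.285 for Isl1 and 0.00381 to 0.307 for Insm1. In NCAM-enriched library 2 the 0 of Neurod1 and of Gfi1 allows up to 2.32 CPM. NCAM-enriched library 1 held 28.7 CPM of Neurod1 and 15.4 CPM of Gfi1, and the cause of this difference was not tested.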

Other observations

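Relatives of the factors that did not pass the filter on low counts went in both directions, and those given here were chosen after their values were seen. Pou4f1, the paralogue of Pou4f3 known from sensory neurons, had 15, 29 and 8 counts in NCAM-enriched libraries 1, 2 and 3 and 2, 0 and 0 in bulk skin. Lhx9, a LIM-homeodomain gene, had 13, 20 and 2 counts in NCAM-enriched libraries and 0 in all bulk skin libraries. Both were detected in every NCAM-enriched library, with the highest count in library 2, the shallowest. DESeq2 called both higher when every gene with a count was tested (8.44% of all genes called in either direction), and edgeR called Lhx9 without NCAM-enriched library 3. In the other direction, Insm2, the paralogue of Insm1, had 0 counts in all NCAM-enriched libraries and 8, 7 and 1 in bulk skin. Atoh8 had 0, 3 and 0 counts in NCAM-enriched libraries and 0, 27 and 0 in bulk skin, each group in 1 library. Sox11 had 44 counts in NCAM-enriched library 2 and 0 in libraries 1 and 3, against 0, 6 and 0 in bulk skin. Lmo2, an LMO protein of blood and endothelial cells, belongs to the cofactor list and, unlike these relatives, was tested. It was not called by edgeR (log2 fold change -5.95 ± 1.65 SE, edgeR adjusted p = 0.0850). Lmo2 had 0, 1 and 0 counts in NCAM-enriched libraries and 63, 72 and 24 in bulk skin. Its pooled counts were 92.7 times higher in bulk skin after scaling for depth (95% counting interval 16.4 to 3684, counting error only).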
